A study of Mus musculus with 6 samples.

Results

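Several of the steps by which insulin acts on the liver cell were followed here in gene expression: Insr, Irs1, Irs2, Pik3r1, Akt1, Akt2, Foxo1, Foxo3, Igfbp1 and Igfbp2, which are 10 of the 23284 genes in the count files. They were chosen by name and function, with earlier results of these data known. They cover the insulin receptor and its substrates, the kinase steps behind it and the FOXO transcription factors. A pair of secreted binding proteins of insulin-like growth factor (IGF) is also included. Liver RNA came from male FXR-floxed mice that received, by tail vein at 8 weeks of age, AAV8 vectors driven by the hepatocyte promoter TBG. One vector carried Cre recombinase, which deletes the floxed mouse gene of the bile acid receptor FXR in hepatocytes. A second vector supplied FXR, as the wild type (FXR-WT, 3 livers) or as a form in which tyrosine 67 is replaced and can no longer be phosphorylated (Y67F-FXR, 3 livers). All mice were killed 4 weeks later, 6 h after a switch to chow containing 0.5% cholic acid (CA), a bile acid that activates FXR. Both groups therefore shared the deletion, the vector type and the CA chow, no liver came from untreated mice, and non-hepatocyte cells kept mouse FXR. How much each mouse had eaten was not given in the sources used here.

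Insulin binds a receptor tyrosine kinase, which phosphorylates the IRS adaptors, and these recruit phosphoinositide 3-kinase (PI3K) and through it the kinase AKT. AKT phosphorylates FOXO factors and keeps them out of the nucleus, so that FOXO-driven genes are low after a meal and high in fasting. In the liver these FOXO-driven genes include the gluconeogenic enzymes G6pc and Pck1, the binding protein Igfbp1, and the pathway's own upstream genes Irs2 and Insr.

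FOXO proteins bind a short core known from the Igfbp1 promoter as the insulin response sequence. The 250 bases before the RefSeq start (GRCm38.p6) were searched on both strands for the letters CAAAACA, the core of that sequence, and GTAAACA, the FOXO consensus. A promoter was given for 9 of the 10 genes and not for Insr. These 9 genes had 15 promoters in the table. CAAAACA was found in 3 of the 15, each of a different gene, and in 5.56% of all 32851 promoters of that length. GTAAACA was found in 1 of the 15, of Akt1, and in 3.17% of all promoters. The 3 promoters with CAAAACA belong to Igfbp1 (chr11:7197537-7197786, plus strand), Irs2 (chr8:11008930-11009179, minus strand) and Irs1 (chr1:82291440-82291689, minus strand). They are shown because Igfbp1 and Irs2 had the largest fitted changes of the 10 genes while Irs1, with a pair of matches, had a small one. Each is written 5′ to 3′ along the gene, and capitals mark a match on either strand.
Igfbp1: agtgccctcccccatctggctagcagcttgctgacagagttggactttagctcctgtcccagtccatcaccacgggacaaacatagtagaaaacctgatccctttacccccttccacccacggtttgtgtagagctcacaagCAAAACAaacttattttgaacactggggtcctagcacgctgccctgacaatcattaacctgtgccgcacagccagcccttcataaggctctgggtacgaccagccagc
Irs2: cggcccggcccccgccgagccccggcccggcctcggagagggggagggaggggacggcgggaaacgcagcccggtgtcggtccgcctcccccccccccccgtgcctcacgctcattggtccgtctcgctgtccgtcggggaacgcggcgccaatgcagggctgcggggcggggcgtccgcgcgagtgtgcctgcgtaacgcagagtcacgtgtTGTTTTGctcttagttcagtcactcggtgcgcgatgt
Irs1: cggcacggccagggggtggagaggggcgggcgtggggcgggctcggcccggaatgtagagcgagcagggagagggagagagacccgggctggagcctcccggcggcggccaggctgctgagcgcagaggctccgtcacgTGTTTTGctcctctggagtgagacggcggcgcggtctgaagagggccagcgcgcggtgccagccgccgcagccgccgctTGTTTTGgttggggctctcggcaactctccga
The match began at position -108 from the start in Igfbp1, at -37 in Irs2, and at -111 and -32 in Irs1. In Igfbp1 it read forward, and in Irs2 and Irs1 it read TGTTTTG, the reverse complement. A match is a description of the letters in this window and shows no binding.

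The libraries held 19551113 to 22053320 counted reads, and 12453 genes passed the filter on low counts, all 10 insulin and FOXO genes among them. Values below are CPM, the usual depth-scaled read count of a gene, with library sizes adjusted by edgeR's TMM factors, log2 fold changes are Y67F-FXR over FXR-WT, and calls required an adjusted p under 0.05 together with a fold over 1.5. Nr1h4, the gene of FXR, averaged 186 ± 30.2 CPM in FXR-WT livers and 175 ± 9.84 CPM in Y67F-FXR livers (SD, n = 3 each). Reads of the mouse gene and of the vectors cannot be told apart in its counts. The study's flag-tagged FXR was human, and it does not state the species of FXR in these AAV8 vectors. How fully vector reads were counted on the mouse gene was not tested. The 8 hepatocyte markers summed to 113154 to 129774 CPM in FXR-WT and 109919 to 132138 CPM in Y67F-FXR livers. Sums of Kupffer cell and leukocyte markers (97.1 to 138 against 75.9 to 158 CPM) overlapped between groups. So did those of endothelial cell (193 to 230 against 200 to 211 CPM) and cholangiocyte markers (46.0 to 71.1 against 54.1 to 60.6 CPM). Of 5 erythrocyte markers only Alas2 had reads (80.1 to 89.3 against 86.5 to 114 CPM). The other 4, globin genes, had 0 reads in every liver. Their models share exon bases in pairs and reads assigned to more than 1 gene were dropped, so these zeros do not show an absence of globin RNA. Within these lists 0 markers were called by edgeR, but the neutrophil markers S100a8 (1.27, 0.970 and 0.864 against 0.243, 0.164 and 0.0477 CPM, log2 fold change -2.73) and S100a9 (-1.95) and the endothelial marker Lyve1 (-0.89) were fitted lower without overlap, at an unadjusted p under 0.05, and DESeq2 called S100a9. The hepatocyte marker Fgb was fitted lower too (-0.53), without overlap. The 8 stellate cell markers summed to 85.0 to 114 CPM in FXR-WT and to 69.7 to 78.2 CPM in Y67F-FXR livers. Of them 7 were fitted lower, 0 were called by edgeR and 1, Lrat, by DESeq2. At an unadjusted p under 0.05 were 3, all lower, beside 6.67% lower of all genes. The part of these markers in the results below was not tested. All 6 pancreas markers, the insulin genes Ins1 and Ins2 among them, had 0 reads in every liver, which by counting error alone allows up to 3 reads, or 0.136 to 0.153 CPM over library totals without TMM factors. In whole liver, fewer cells of a type and less RNA per cell cannot be told apart.

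None of the 10 genes was called between Y67F-FXR and FXR-WT livers, where 0.972% of all genes tested were called (0.546% higher and 0.426% lower) by the quasi-likelihood test of edgeR (Benjamini-Hochberg adjusted). At an unadjusted p under 0.05 there were 2, Irs2 and Igfbp1, both fitted higher in Y67F-FXR, beside 13.4% of all genes in either direction (6.75% higher and 6.67% lower). DESeq2 called 1, Irs2, and 3.60% of all genes to which it gave an adjusted p. Fitted values were higher for 7 genes (Insr, Irs1, Irs2, Foxo1, Foxo3, Igfbp1 and Igfbp2) and lower for 3 (Pik3r1, Akt1 and Akt2), with a median log2 fold change of 0.35 beside 0.01 over all genes tested. That median was 0.18 to 0.39 in the 13 alternative settings, with the lowest value, 0.18, when Y67F-FXR replicate 1 was left out. The 3 livers of each group did not overlap for Irs2, Foxo1 (both higher) and Akt1 (lower), which is 3 of 10 genes beside 20.6% of all genes. With counts scaled by library totals in place of TMM factors, 1 of the 10 genes did not overlap, beside 21.3% of all genes at that scaling.

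**Figure D1:**
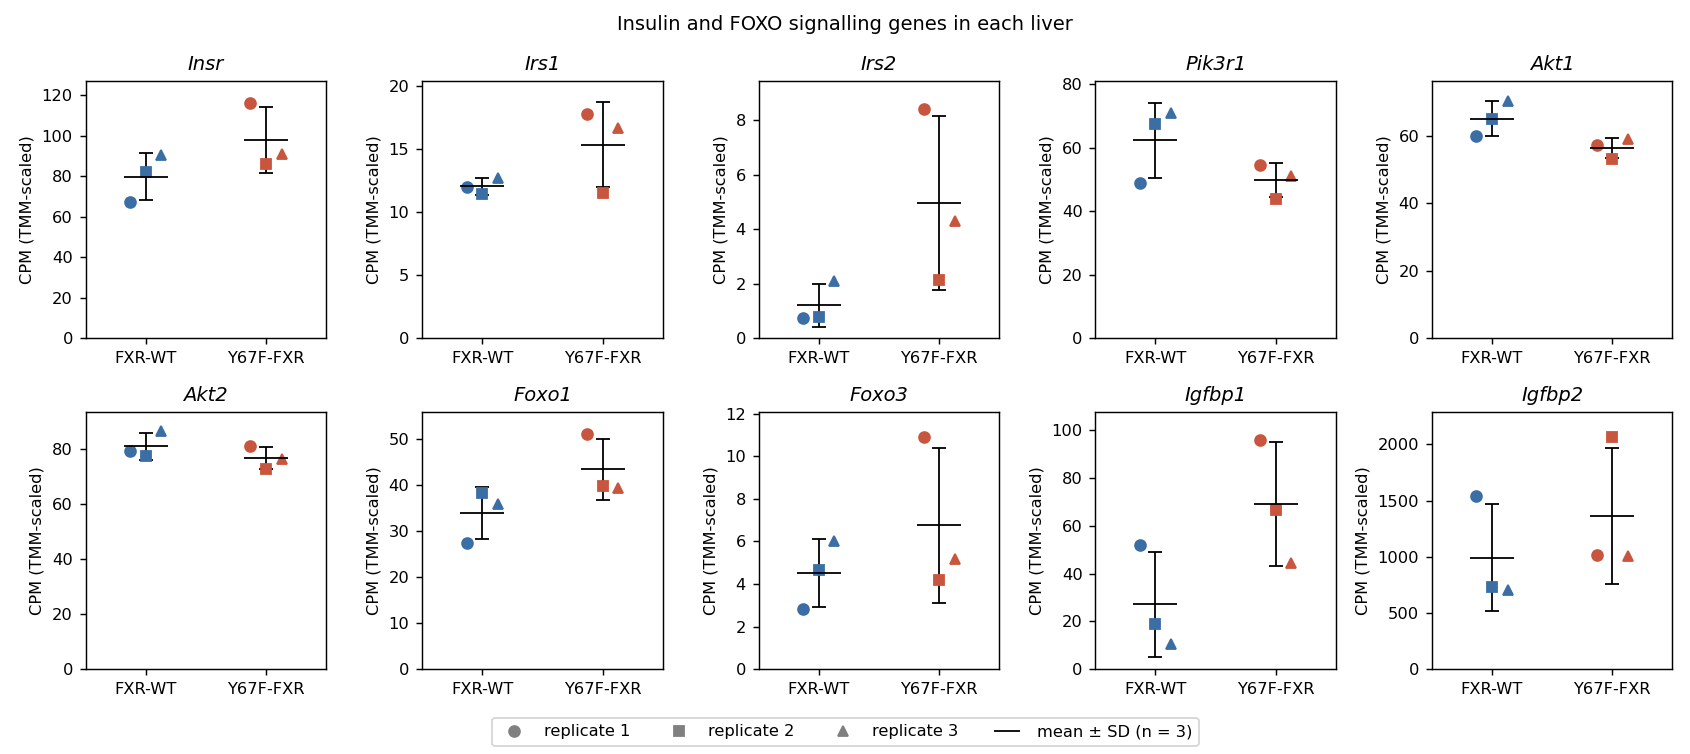
TMM-scaled CPM (y axes, from 0) of the 10 genes in each of 3 FXR-WT (blue) and 3 Y67F-FXR (red) livers, with the group mean and SD as lines and marker shape giving the replicate number. Y67F-FXR replicate 1 lies highest in 6 of the 10 panels, and the groups separate only for Irs2, Foxo1 and Akt1.

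At the head of the pathway, the insulin receptor gene Insr (mm9 chromosome 8, 3150922 to 3279617) had 67.1, 81.9 and 90.3 CPM in FXR-WT replicates 1 to 3 and 116, 85.8 and 90.8 CPM in Y67F-FXR replicates 1 to 3. One Y67F-FXR liver lay above all others, and of the other Y67F-FXR livers replicate 2 lay within the FXR-WT range and replicate 3 just above it. The log2 fold change was 0.29 (standard error 0.166, 95% interval -0.09 to 0.67, edgeR Benjamini-Hochberg adjusted p = 0.523) and 0.15 without Y67F-FXR replicate 1.

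Irs1 (chromosome 1, 82229680 to 82288014), the adaptor that the receptor phosphorylates in many tissues, had 12.0, 11.4 and 12.7 CPM in FXR-WT livers and 17.8, 11.6 and 16.7 CPM in Y67F-FXR livers. A pair of Y67F-FXR livers stood above all FXR-WT livers, and the other was among them. Its log2 fold change was 0.35 (standard error 0.181, edgeR Benjamini-Hochberg adjusted p = 0.466).

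Irs2 (chromosome 8, 10986964 to 11008430), the adaptor that falls when insulin shuts FOXO out of the nucleus, had the largest fitted change of the 10 genes. It was counted at 15, 16 and 49 reads in FXR-WT and 173, 39 and 90 reads in Y67F-FXR livers, or 0.733, 0.776 and 2.12 CPM against 8.41, 2.13 and 4.30 CPM. The highest FXR-WT liver (2.12 CPM) and the lowest Y67F-FXR liver (2.13 CPM) almost met, and the others were well apart. The group means were 1.21 ± 0.787 and 4.94 ± 3.19 CPM (SD, n = 3). The fitted fold was 4.04 (95% interval 1.60 to 10.2, log2 2.01, standard error 0.578), with an edgeR Benjamini-Hochberg adjusted p = 0.170. DESeq2 gave an adjusted p of 0.0108 for Irs2. Leaving out each liver in turn gave log2 fold changes of 1.396 (without Y67F-FXR replicate 1) to 2.71 (without FXR-WT replicate 3) and edgeR Benjamini-Hochberg adjusted p-values of 0.117 to 0.438. Part of the first exon of Irs2 overlaps an exon of 9530052E02Rik on the opposite strand, and reads assigned to both were not counted.

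The 3 genes fitted lower were those between the adaptors and the FOXO factors. Pik3r1 (chromosome 13, 102450718 to 102538172) encodes p85, the regulatory subunit of PI3K. It had 48.8, 67.3 and 70.9 CPM in FXR-WT and 54.4, 43.8 and 51.0 CPM in Y67F-FXR livers. A pair of FXR-WT livers lay above all Y67F-FXR livers, and FXR-WT replicate 1 lay among them. Its log2 fold change was -0.33 (standard error 0.168, edgeR Benjamini-Hochberg adjusted p = 0.467).

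Akt1 (chromosome 12, 113892032 to 113912487) and Akt2 (chromosome 7, 28376579 to 28424472) encode the AKT kinases, of which AKT2 is best known for insulin's effects on glucose. Akt1 had 60.0, 65.1 and 70.4 CPM in FXR-WT and 57.2, 53.0 and 59.0 CPM in Y67F-FXR livers. The groups did not overlap, by a narrow margin, and the log2 fold change was -0.21 (standard error 0.117, edgeR Benjamini-Hochberg adjusted p = 0.516). Akt2 had 79.1, 77.4 and 86.7 CPM against 80.9, 72.9 and 76.4 CPM, in overlapping groups. Its log2 fold change was -0.08 with a 95% interval of -0.34 to 0.18 (edgeR Benjamini-Hochberg adjusted p = 0.845). The coefficients of variation of these kinase genes within groups were 5.25% to 8.01%, and those of the other 8 genes ran from 5.435% (Irs1 in FXR-WT) to 81.05% (Igfbp1 in FXR-WT).

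Foxo1 (chromosome 3, 52072259 to 52154031), the FOXO factor most studied in hepatic gluconeogenesis, had 27.5, 38.3 and 35.9 CPM in FXR-WT and 51.0, 39.8 and 39.2 CPM in Y67F-FXR livers. All Y67F-FXR livers were above all FXR-WT livers, although the nearest pair differed by less than the SD of either group (33.9 ± 5.69 and 43.4 ± 6.65 CPM, n = 3). The log2 fold change was 0.36 (standard error 0.170, 95% interval -0.04 to 0.75, edgeR Benjamini-Hochberg adjusted p = 0.427). Foxo3 (chromosome 10, 41905592 to 41996548), a related factor with overlapping targets, had 2.84, 4.65 and 6.01 CPM in FXR-WT and 10.9, 4.20 and 5.16 CPM in Y67F-FXR livers. Only Y67F-FXR replicate 1 lay outside the FXR-WT range. Its log2 fold change was 0.58 (standard error 0.403, edgeR Benjamini-Hochberg adjusted p = 0.621) and 0.05 without that liver.

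Igfbp1 (chromosome 11, 7097790 to 7102549) is a secreted IGF-binding protein gene of hepatocytes that insulin represses through FOXO. It had 52.1, 19.0 and 10.4 CPM in FXR-WT and 96.1, 66.7 and 44.4 CPM in Y67F-FXR livers. FXR-WT replicate 1 lay above Y67F-FXR replicate 3, and otherwise the Y67F-FXR livers were higher. The means were 27.1 ± 22.0 and 69.1 ± 26.0 CPM (SD, n = 3). The fitted fold was 2.55 (95% interval 1.06 to 6.10, log2 1.35, standard error 0.546), with an edgeR Benjamini-Hochberg adjusted p = 0.338. Without FXR-WT replicate 1 the log2 fold change was 2.24 (edgeR Benjamini-Hochberg adjusted p = 0.0679), and over all 6 omissions it ranged from 0.96 to 2.24 with an adjusted p up to 0.653.

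Igfbp2 (chromosome 1, 72871054 to 72899045), a second hepatic IGF-binding protein gene, had 1546, 731 and 704 CPM in FXR-WT and 1018, 2063 and 1009 CPM in Y67F-FXR livers. In each group 1 liver stood well above the rest, and the groups overlapped. The log2 fold change was 0.46 (standard error 0.384, edgeR Benjamini-Hochberg adjusted p = 0.696), with 0.02 when Y67F-FXR replicate 2 was left out and 0.93 when FXR-WT replicate 1 was left out. FXR-WT replicate 1 was the highest FXR-WT liver for both binding protein genes, whereas the highest Y67F-FXR liver was replicate 2 for Igfbp2 and replicate 1 for Igfbp1.

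The livers themselves differed in a way that cut across the groups. Y67F-FXR replicate 1 was the highest of all 6 livers for Insr, Irs1, Irs2, Foxo1, Foxo3 and Igfbp1, and FXR-WT replicate 1 was the lowest for Insr, Irs2, Foxo1 and Foxo3. FXR-WT replicate 3 was the highest and Y67F-FXR replicate 2 the lowest for Pik3r1, Akt1 and Akt2. Over all genes tested, a trend with gene length ran through the same libraries. The 20% of genes with the longest exons in sum deviated from their mean over the livers by a median log2 value of 0.19 for Y67F-FXR replicate 1 and 0.11 for FXR-WT replicate 3, but -0.13 for FXR-WT replicate 1 and -0.17 for Y67F-FXR replicate 2. Insr, Irs1 and Pik3r1 have 9355, 9163 and 7378 exonic bases in these gene models, while Igfbp1 has 1520. The others named above lie between, with 5552 for Foxo1, 4012 for Irs2, 3241 for Akt2, 2889 for Foxo3 and 2690 for Akt1. With offsets that remove this trend, the log2 fold changes were 0.27 for Insr, 0.32 for Irs1, 1.98 for Irs2, -0.34 for Pik3r1, 0.34 for Foxo1 and 1.42 for Igfbp1. These 6 genes then had an unadjusted p under 0.05, as did 16.8% of all genes in that fit, and 0 passed after edgeR's Benjamini-Hochberg adjustment, with Irs2 lowest at 0.0928.

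Levels of different genes were compared as CPM per kilobase of exon. Igfbp2 was far the highest at 888 ± 398 CPM per kb (SD over 6 livers), above every value of Igfbp1 (31.6 ± 20.7). Igfbp1, which ranged from 6.85 to 63.2 CPM per kb, was above Akt2 (24.3 ± 1.44) in 4 of 6 livers, so the order of this pair was not set beyond their spread. Akt2 was above Akt1 (22.6 ± 2.28) in 5 of 6 livers, and Akt1 was above Insr (9.48 ± 1.71) with no overlap. Insr was above Pik3r1 (7.59 ± 1.45) in 5 livers, and Pik3r1 and Foxo1 (6.96 ± 1.37) could not be ordered, with Pik3r1 higher in 3 of 6. Every value of Foxo1 was above every value of Foxo3 (1.95 ± 0.964). Foxo3, Irs1 (1.497 ± 0.307) and Irs2 (0.767 ± 0.727) closed the order with overlapping ranges. The level of Irs2 per kilobase may be too low. Reads in the part shared with 9530052E02Rik were not counted, but the full exon length was used.

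**Figure D2:**
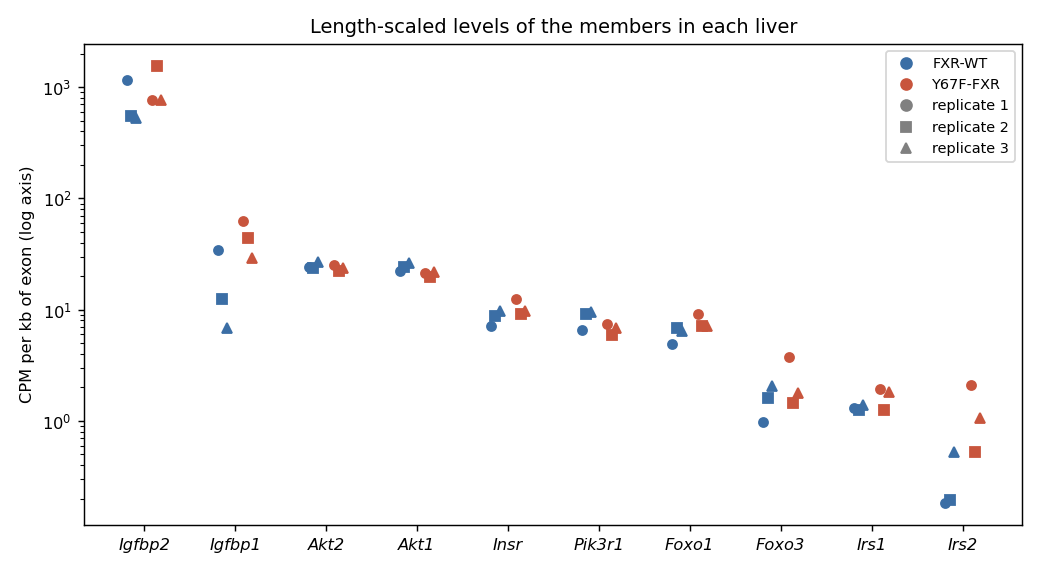
Levels of the 10 genes in each liver as CPM per kilobase of exon on a log axis, ordered by the mean over 6 livers (FXR-WT blue, Y67F-FXR red, marker shape for the replicate number). Igfbp2 stands alone at the top, Irs2 spans 0.183 to 2.10 CPM per kb, and Akt1 and Akt2 vary least.

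The 4 ratios of related genes were formed within each liver, since a ratio of a pair of genes in the same library does not depend on how libraries are scaled. With 3 livers against 3, an exact permutation test cannot give a two-sided p below 0.10, so that no ratio could pass 0.05. The Irs2/Irs1 ratio of CPM per kb was 0.140, 0.155 and 0.379 in FXR-WT and 1.08, 0.420 and 0.587 in Y67F-FXR livers. Every Y67F-FXR liver was above every FXR-WT liver, with the nearest at 0.420 and 0.379. The group means differed by 1.67 on the log2 scale (standard error 0.606, exact two-sided permutation p = 0.1, 0.267 adjusted over 4 ratios). Only in Y67F-FXR replicate 1 was Irs2 above Irs1 per kilobase, with the limit on the level of Irs2 given above.

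The Igfbp2/Igfbp1 ratio was 34.0, 44.2 and 77.5 in FXR-WT and 12.1, 35.4 and 26.0 in Y67F-FXR livers. Only the highest Y67F-FXR liver reached into the FXR-WT range, and the log2 difference was -1.13 (standard error 0.578, exact two-sided permutation p = 0.2, adjusted 0.267). The Akt2/Akt1 ratio was 1.09, 0.986 and 1.02 against 1.17, 1.141 and 1.08, a log2 difference of 0.13 (standard error 0.0578, exact two-sided permutation p = 0.2, adjusted 0.267). It stayed near equal levels of both kinases in every liver. The Foxo3/Foxo1 ratio was 0.198, 0.234 and 0.321 against 0.410, 0.203 and 0.252, in overlapping groups, with a log2 difference of 0.17 (standard error 0.363, exact two-sided permutation p = 0.6, adjusted 0.6). It was -0.12 without Y67F-FXR replicate 1.

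**Figure D3:**
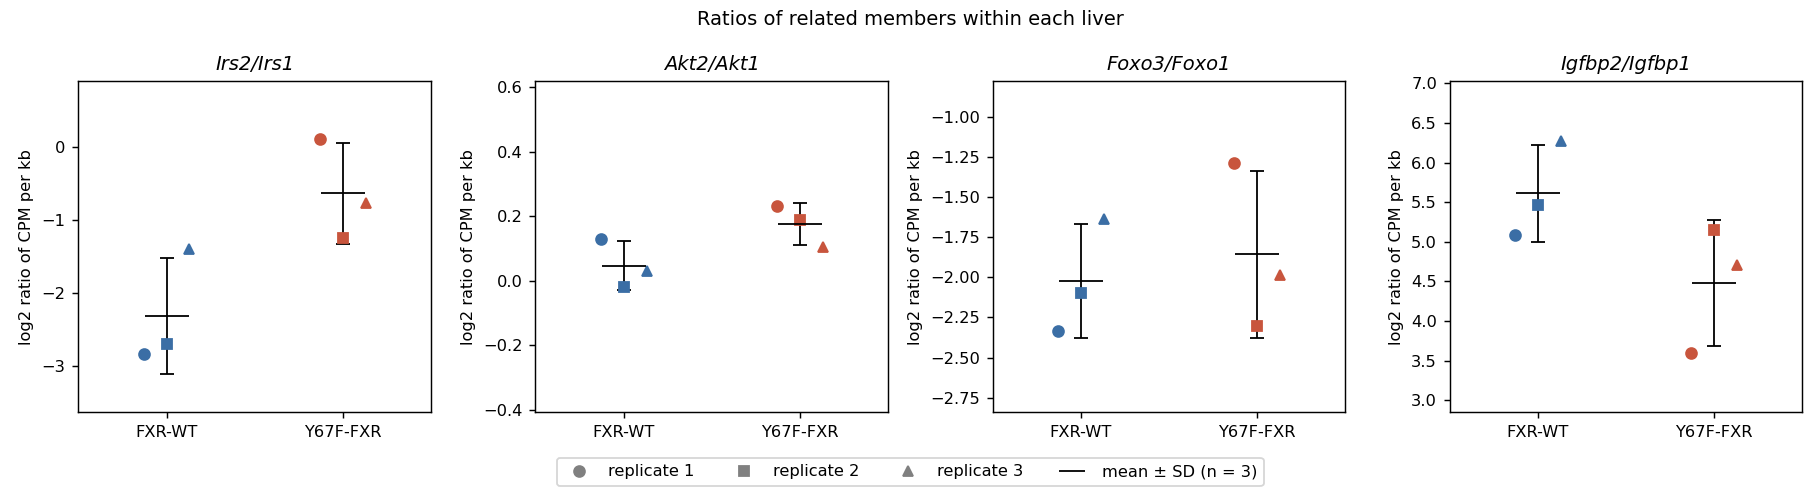
Log2 ratios of CPM per kilobase (y axes, different ranges) for Irs2/Irs1, Akt2/Akt1, Foxo3/Foxo1 and Igfbp2/Igfbp1 in each liver, with group means and SD as lines. The Irs2/Irs1 ratio alone separates the groups completely.

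The other genes of the pathway were read from lists by role. Of 96 tested genes outside the 10, 3 were called, beside 0.972% of all genes. Among the 3 were the FOXO-induced genes G6pc and Bcl6. In the list of receptors and adaptors 0 of 18 were called by edgeR and 1, Irs2, by DESeq2, with 9 fitted higher and 9 lower. At an unadjusted p under 0.05 stood 6.75% higher and 6.67% lower of all genes. In the list 2 were higher (Irs2 and Gab1, the latter named after its values were seen) and 2 lower. The latter were Shc1, an adaptor towards the RAS branch (48.5, 47.2 and 50.9 against 38.4, 30.9 and 33.7 CPM, log2 fold change -0.51, edgeR Benjamini-Hochberg adjusted p = 0.124), and Sh2b2, a receptor adaptor (log2 fold change -1.10, adjusted p = 0.186). Both had groups that did not overlap.

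Among the signalling steps below the receptor, the lists had medians near that of all genes. PI3K and lipid phosphatase genes had 0 of 9 called and a median log2 fold change of 0.05. Their smallest p-values outside Pik3r1 belonged to the PI3K subunit genes Pik3r3 (-0.42, edgeR Benjamini-Hochberg adjusted p = 0.597) and Pik3cb (0.24, adjusted p = 0.661). AKT, GSK3 and their regulators had 0 of 15 called and a median of -0.08. The AKT phosphatase gene Phlpp1 (0.28, edgeR Benjamini-Hochberg adjusted p = 0.519) and the AKT-related kinase gene Sgk2 (0.23, adjusted p = 0.569) stood next to Akt1 there. Genes of the mTOR branch had 0 of 15 called and a median of 0.05. Mapkap1, a subunit of the mTOR complex that phosphorylates AKT, had 42.3, 47.0 and 45.7 CPM in FXR-WT and 35.7, 35.1 and 34.4 CPM in Y67F-FXR livers. These groups did not overlap, with a log2 fold change of -0.36 (edgeR Benjamini-Hochberg adjusted p = 0.196), and it was the only gene of these 3 lists with an unadjusted p under 0.05. The mTOR inhibitor gene Tsc2 (0.29, adjusted p = 0.453 by edgeR with Benjamini-Hochberg adjustment) and the mTOR activator gene Rheb (-0.20, adjusted p = 0.565) followed. DESeq2 called none of the genes of these 3 lists.

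FOXO factors and their regulators, 14 genes tested, had 0 called by edgeR or DESeq2, 0 at an unadjusted p under 0.05, and a median log2 fold change of 0.01. Beside Foxo1, the smallest p-values were those of Ywhah and Ywhae, which encode 14-3-3 proteins that hold phosphorylated FOXO in the cytoplasm. Ywhah had 29.3, 28.9 and 29.5 CPM in FXR-WT and 21.7, 22.4 and 27.5 CPM in Y67F-FXR livers, without overlap (log2 fold change -0.29, edgeR Benjamini-Hochberg adjusted p = 0.386). Ywhae had 230, 254 and 251 against 212, 215 and 212 CPM, also without overlap (-0.20, edgeR Benjamini-Hochberg adjusted p = 0.478). IGFs and their binding proteins had 0 of 10 called and a median of -0.02, with Igfbp1 fitted higher and Igfals, which stabilises circulating IGF, fitted lower at an unadjusted p under 0.05 (-0.42, edgeR Benjamini-Hochberg adjusted p = 0.330). Igfbp3, which lies next to Igfbp1 on chromosome 11 (7106096 to 7113926), had 47.3, 27.2 and 19.7 against 13.2, 24.1 and 18.6 CPM (-0.76, edgeR Benjamini-Hochberg adjusted p = 0.388), so the neighbours had fitted values of opposite sign. DESeq2 called 0 of the IGF list.

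The genes known to be driven by FOXO in the liver had 2 of 18 called, both higher, where 0.546% of all genes were called higher. This list and that of insulin-induced genes were drawn up with earlier results of these data known. Their counts and medians are a description and no independent test. Insr, Irs2 and Igfbp1 belong to the FOXO-induced list. The median log2 fold change was 0.50 over the list and 0.34 over the 15 genes other than those 3, beside 0.01 over all genes, and the list's median lay between 0.43 and 0.58 in all 13 alternative settings. Unadjusted p-values under 0.05 were found for 8 genes fitted higher and 1 fitted lower, beside 6.75% higher and 6.67% lower of all genes.

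G6pc (chromosome 11, 101229044 to 101239217), the enzyme of the last step of glucose release, had 13.3, 52.6 and 31.5 CPM in FXR-WT and 471, 281 and 293 CPM in Y67F-FXR livers. Every Y67F-FXR liver was far above every FXR-WT liver. The fold was 10.7 (95% interval 5.02 to 22.9, log2 3.42, standard error 0.475, edgeR Benjamini-Hochberg adjusted p = 0.0244). Bcl6 (chromosome 16, 23965138 to 23988698), a transcriptional repressor, had 4.64, 9.41 and 8.86 against 29.8, 28.5 and 19.9 CPM, again without overlap, a fold of 3.41 (log2 1.77, standard error 0.280, edgeR Benjamini-Hochberg adjusted p = 0.0353). The call of G6pc was lost without FXR-WT replicate 3 (adjusted p = 0.105 by edgeR with Benjamini-Hochberg adjustment), Y67F-FXR replicate 1 (0.0571) or Y67F-FXR replicate 3 (0.0810), and that of Bcl6 in 5 of 6 omissions, with an adjusted p up to 0.105. The direction of both held in every omission. With a block for replicate number neither was called (edgeR Benjamini-Hochberg adjusted p = 0.119 for G6pc and 0.146 for Bcl6). The G6pc promoter held 1 match to CAAAACA, at position -174, and the Bcl6 promoters held none.

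The other FOXO-induced genes with an unadjusted p under 0.05 were not called in the main fit. Pck1, Klf15 and Gadd45a were called with gene length offsets, where 1.98% of all genes were called. Pck1 was also called without FXR-WT replicate 2. With a block for replicate number 0 genes of the list were called. Pck1, the gluconeogenic enzyme, had 1518, 2639 and 1637 CPM in FXR-WT and 4798, 3756 and 3807 CPM in Y67F-FXR livers (log2 fold change 1.09, edgeR Benjamini-Hochberg adjusted p = 0.0872). Klf15, a fasting-induced factor that drives amino acid use in gluconeogenesis, had 92.3, 104 and 85.2 against 164, 139 and 143 CPM (0.67, edgeR Benjamini-Hochberg adjusted p = 0.0704). Both had every Y67F-FXR liver above every FXR-WT liver. The cyclin-like gene Ccng2 (log2 fold change 0.93, edgeR Benjamini-Hochberg adjusted p = 0.0969) and Pdk4, which blocks entry of pyruvate into oxidation (1.00, adjusted p = 0.166), were fitted higher, also without overlap. Gadd45a, a growth arrest gene, was fitted lower, with 22.7, 6.88 and 7.30 CPM in FXR-WT and 1.65, 2.73 and 1.96 CPM in Y67F-FXR livers (-2.54, edgeR Benjamini-Hochberg adjusted p = 0.0724). Without FXR-WT replicate 1, its highest liver, the log2 fold change was -1.75 and the gene was called (edgeR Benjamini-Hochberg adjusted p = 0.0466), and over the 6 omissions the adjusted p ran up to 0.290. Its exons share bases with E230016M11Rik. DESeq2 called all 7 of these genes (G6pc, Bcl6, Pck1, Klf15, Ccng2, Pdk4 and Gadd45a) and Irs2 in this list. It called 3.60% of all genes to which it gave an adjusted p.

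Genes that insulin induces in the liver, 11 of them tested, had 1 called by edgeR, lower, beside 0.426% of all genes. Their median log2 fold change was -0.25 (-0.34 to -0.15 in the 13 alternative settings), with 3 fitted higher and 8 lower. Egr1, an immediate early gene, had 37.0, 17.4 and 38.7 against 6.12, 11.02 and 5.25 CPM, without overlap (-2.06, edgeR Benjamini-Hochberg adjusted p = 0.0547). It was called in 6 of the 13 alternative settings, DESeq2 among them. With a liver left out its edgeR Benjamini-Hochberg adjusted p ran up to 0.238. The fatty acid synthase gene Fasn had 191, 153 and 148 against 127, 96.4 and 141 CPM (-0.43, edgeR Benjamini-Hochberg adjusted p = 0.338). Srebf1, the lipogenic transcription factor, had 149, 86.0 and 86.8 against 76.9, 76.6 and 76.4 CPM (-0.48, edgeR Benjamini-Hochberg adjusted p = 0.389). With a liver left out its log2 fold change ran from -0.62 to -0.18, and its exons share bases with Rai1. For both, every Y67F-FXR liver lay below every FXR-WT liver.

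**Figure D4:**
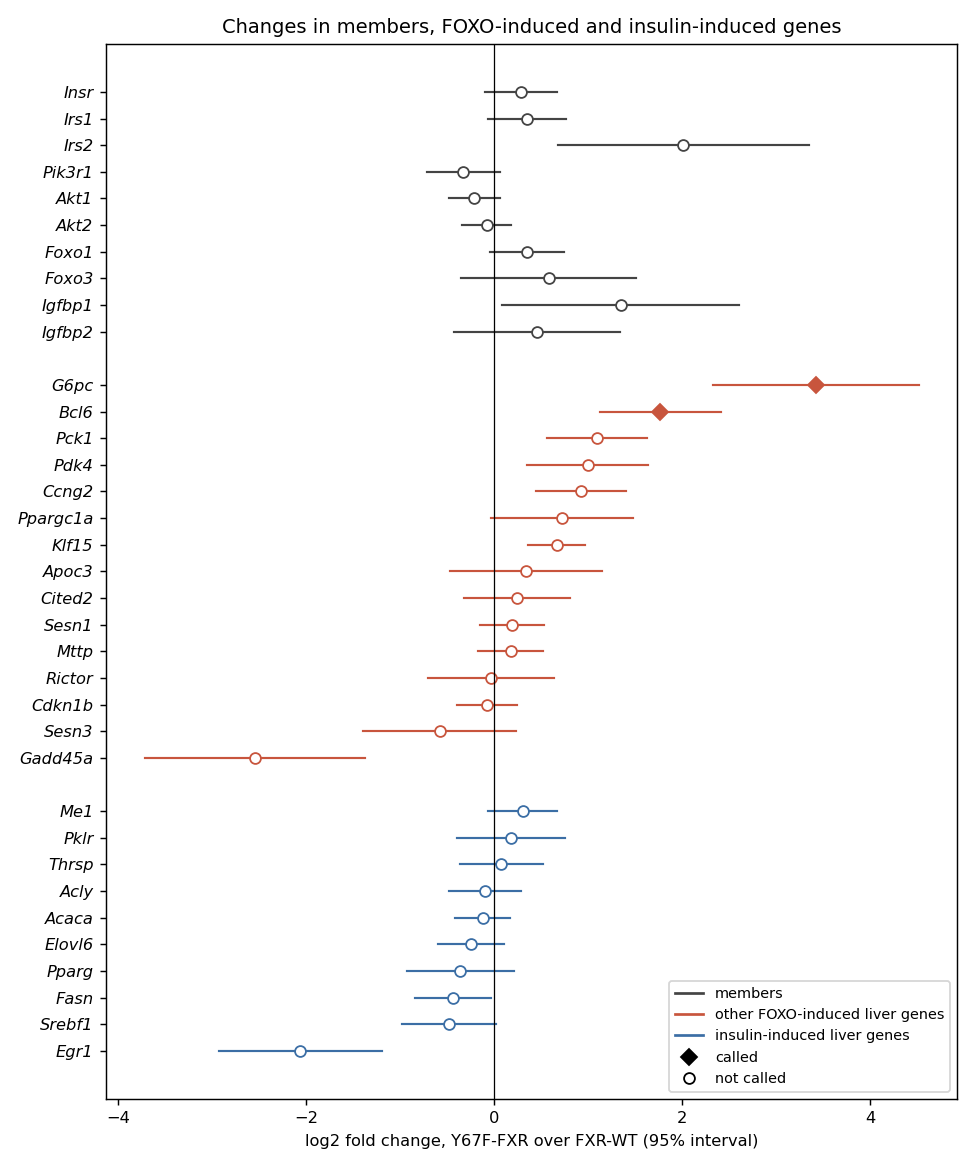
Fitted log2 fold changes (x axis, Y67F-FXR over FXR-WT, 95% intervals as lines) of the 10 genes (dark), the other FOXO-induced genes (red) and 10 insulin-induced genes (blue), with filled diamonds for called genes. G6pc and Bcl6 lie to the right of 0, and of the 10 genes only the intervals of Irs2 and Igfbp1 do not reach 0.

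**Figure D5:**
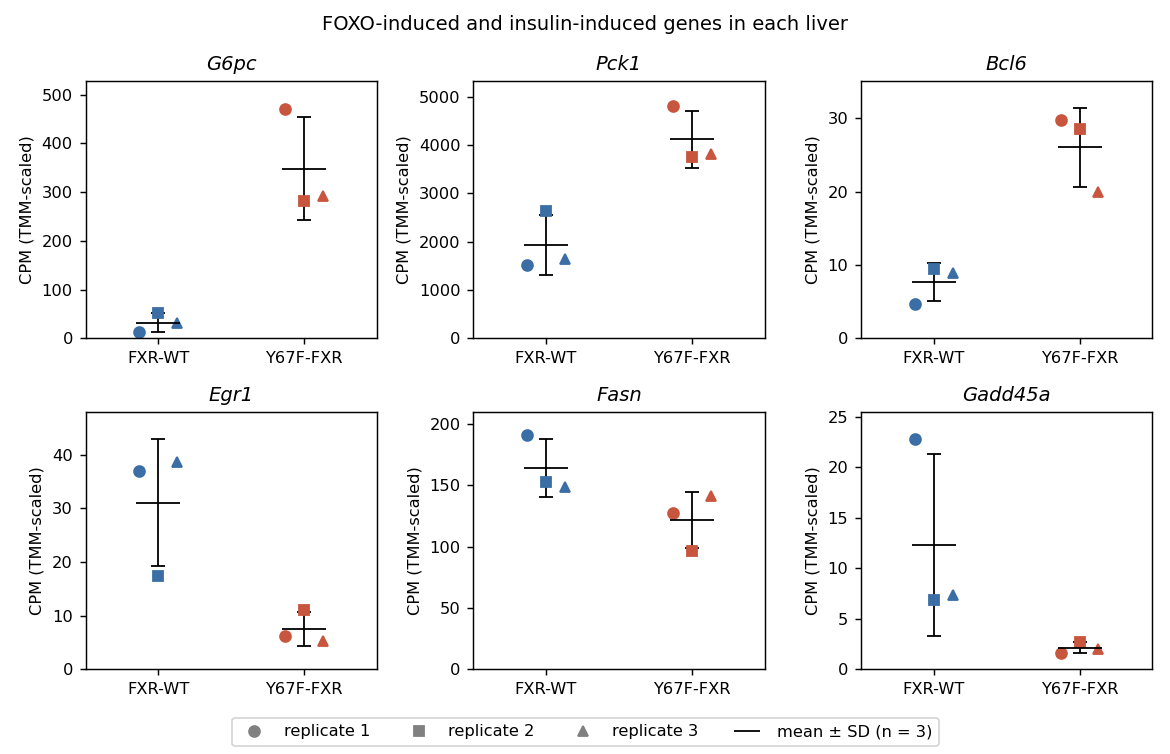
TMM-scaled CPM (y axes, from 0) of G6pc, Pck1, Bcl6, Egr1, Fasn and Gadd45a in each liver, with group means and SD as lines. The groups do not overlap in any of the 6 panels, with Y67F-FXR higher in the upper row and lower in the lower row.

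Set beside these outputs, the 10 genes differed in how their livers lay. Irs2 followed the order seen for G6pc among Y67F-FXR livers, with replicate 1 highest and replicate 2 lowest, while Igfbp1 and Bcl6 were highest in replicate 1 and lowest in replicate 3. With 3 livers this is a description only. Among FXR-WT livers, Igfbp1 was highest in replicate 1, in which G6pc, Pck1, Bcl6 and Irs2 were each lowest.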

How the data were processed

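RNA of 3 FXR-WT and 3 Y67F-FXR livers was sequenced as paired-end reads. Per the submitters' processing notes, reads were handled with bcl2fastq 2.17.1.14, Trimmomatic 0.36, FastQC 0.11.5 and STAR 2.5.3a and counted with featureCounts 1.4.6-p4 (UCSC gene annotation of mm9), while the study's methods name another version of STAR. The authors deposited raw counts per gene, without normalization. Counting ignored strand, took each read of a pair on its own and dropped reads assigned to more than 1 gene or place. A table of the authors' own comparison (log2 fold change, mean log2 CPM, p-value and false discovery rate) was not used.

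The analysis used edgeR 4.0.16 in R 4.3.3 (filterByExpr, TMM factors, glmQLFit, glmQLFTest, Benjamini-Hochberg adjustment over 12453 genes). A call needed an adjusted p under 0.05 and a fitted fold over 1.5. Standard errors were derived from the F statistic, and the common biological coefficient of variation was 0.194. Alternatives used DESeq2 1.42.0, RLE factors, library totals, other filters, calls by adjusted p alone, a block for replicate number, loess offsets for gene length (span 0.3), 2 reads added in the ratios, and each liver left out. Plots used Python 3.11.15 and matplotlib 3.10.9.

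The genes, lists and tests were chosen with earlier results of these data known. The genes named were the 10 studied, every called gene of each list, the 3 with the smallest p per list, and FOXO-induced or insulin-induced genes with an unadjusted p under 0.05. A gene that this rule gives is not reported here. Lists held receptors and adaptors, PI3K and lipid phosphatases, AKT and GSK3 regulators, the mTOR branch, FOXO factors, FOXO-induced genes, insulin-induced genes and IGFs. Inpp4b, Foxo6 and Pnpla3 had too few reads to be tested, and Adgre1 was found under its older name Emr1. The study's methods give 1 library for each biological sample, the labels do not say that samples came from separate mice, and p-values measure the spread between these samples. No library was a repeat of another within counting noise (median chi-square per gene 2.23 to 8.10 within groups), which does not show that they are separate mice. Promoters are RefSeq sequences of GRCm38.p6, and gene coordinates are those of mm9.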

Additional observations from a re-analysis of the deposited data

How the results depend on the processing

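Of the 130 fits of the 10 genes under alternatives, 129 kept direction and side of the threshold, and Irs2 passed it with DESeq2, which called 1 of the 10 genes and 3.60% of all genes. The 10 genes had 0 calls in every other alternative. Calls over all genes numbered 121 in the main edgeR fit made here, which is not the study's own count. They numbered 431 with DESeq2, 8 with the replicate block and 247 with gene length offsets. With a liver left out they numbered 9 (without FXR-WT replicate 3) to 66. Calls among the other pathway genes numbered 3 in the main fit. They were 9 with DESeq2, 5 with no filter, 1 with the replicate block and 7 with gene length offsets. With a liver left out they were 1 to 4 (1 without FXR-WT replicate 3, Y67F-FXR replicate 1 or Y67F-FXR replicate 3). With the replicate block, the adjusted p was 0.119 for G6pc and 0.146 for Bcl6 (edgeR, Benjamini-Hochberg). With library totals 43.3% of calls over all genes were higher, against 56.2% with TMM factors, and 1 of the 10 genes did not overlap between groups in place of 3. The share of all genes was 21.3% with library totals and 20.6% with TMM factors. With a liver left out 3 to 6 of the 10 genes did not overlap, beside 25.7% to 32.0% of all genes, and 6 without FXR-WT replicate 1, beside 31.4%. The cause was not tested. The ratio differences kept their sign with 2 reads added, and with a liver left out they ranged from 1.30 to 2.13 for Irs2/Irs1, 0.09 to 0.17 for Akt2/Akt1, -0.12 to 0.39 for Foxo3/Foxo1 and -1.46 to -0.68 for Igfbp2/Igfbp1 (log2). Only Foxo3/Foxo1 changed sign, without Y67F-FXR replicate 1 (-0.12).

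Same-numbered livers did not deviate together (r = -0.52, -0.08 and 0.12 over genes). With 3 livers a group, and a gene length trend in the same libraries, this cannot exclude a pairing by replicate number. The labels do not say whether the livers were paired. Under that block the ratio differences were the same, 1.67, 0.13, 0.17 and -1.13, with exact p = 0.25 for Irs2/Irs1, Akt2/Akt1 and Igfbp2/Igfbp1 and 1 for Foxo3/Foxo1. With 3 livers a group the intervals were wide, 1.60 to 10.2 for the fold of Irs2 (15 to 173 reads) and 1.06 to 6.10 for that of Igfbp1 (241 to 1978 reads).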
